A study of Mus musculus with 2 samples.

Results

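Peaks of open chromatin assigned to genes for microRNAs and small nucleolar RNAs were examined in mouse regulatory T (Treg) cells. Members were the rows of the deposited peak lists whose assigned gene symbol starts with Mir and a digit, with Mirlet, or with Snora, Snord or Scarna and a digit. The rule found 557 of 34440 peaks in WT cells and 261 of 19680 peaks in cKO cells, 818 of 54120 in all. Of these, 517 WT and 242 cKO peaks were assigned to microRNA genes, 30 and 13 to nucleolar or Cajal body RNA genes, and 10 and 6 to host transcripts of microRNAs, whose symbols end in hg. The peaks named 320 microRNA genes in either list (317 in WT, 173 in cKO and 170 in both) and 21 nucleolar or Cajal body RNA genes (20 in WT, 12 in cKO and 11 in both).

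ATAC-seq, in which the transposase Tn5 inserts sequencing adapters into accessible DNA, had been run on 50000 CD4+CD25+YFP+ cells per library. Female C57BL/6 mice 7 weeks old gave the spleens and lymph nodes from which the cells were sorted, and 1 library was made per group. The WT cells came from Foxp3cre/+ mice, and the cKO cells from Foxp3cre/+ TKTfl/fl mice, in which Tkt, the gene of transketolase, is deleted in Treg cells. Both groups therefore carried the Cre allele at Foxp3, a gene on the X chromosome, and the labels call the animals chimeric. Whether cells of several mice were pooled is not given in the sources used here. The defining Treg genes Foxp3, Il2ra, Ikzf2 and Ctla4 all had peaks in both lists (19 WT and 14 cKO peaks in all). Of 9 marker genes for B cells, myeloid cells, and CD8 T and NK cells, Cd79a and Cd8b1 had 1 peak in each list and Lyz2 had 1 peak in the cKO list only. The part of other cells in the results was not tested. Every comparison below sets 1 library against 1 library, so the spread between replicates is unknown and nothing was tested.

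MicroRNAs are cut from hairpin precursors by Drosha and Dicer and guide Argonaute proteins to messenger RNAs that pair with their seed, the short stretch near the 5′ end. Many hairpins lie in introns of coding genes and others in long noncoding host transcripts. Treg cells that lack Dicer lose suppressive function, and miR-155, miR-146a and the miR-17 to miR-92 cluster have known roles in Treg number and function. Small nucleolar RNAs mostly guide chemical changes of ribosomal RNA. The C/D box class mostly guides methylation, the H/ACA box class mostly guides pseudouridylation, and Cajal body RNAs act on spliceosomal RNAs. Most of them are released from introns of host genes, often genes of ribosomal proteins, while U8 (Snord118), U13 (Snord13) and Scarna2 are transcribed from promoters of their own.

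Mature microRNAs of some genes named below are shown first, from RefSeq (GRCm38.p6), 5′ to 3′, with bases 2 to 8, the seed, in capitals. They are set out by family or by whether the peaks of their genes were shared. Among them, the let-7, miR-26, miR-21 and miR-29 forms each have a seed in common. Of the 320 microRNA genes, 288 matched the RefSeq sequence table, and mature sequences of 283 genes were counted. The seed counts therefore do not cover all 320 genes. The 454 mature forms of the 283 genes carried 422 different seeds, and 25 seeds were shared by more than 1 of these genes. The first set belongs to T cell microRNA genes whose own hairpin was overlapped by a WT peak with a cKO partner.
mmu-miR-155-5p: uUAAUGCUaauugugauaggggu
mmu-miR-142a-5p: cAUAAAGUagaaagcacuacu
mmu-miR-142a-3p: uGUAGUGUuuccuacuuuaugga
mmu-miR-210-3p: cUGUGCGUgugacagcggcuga
The let-7 and miR-26 forms below share the seeds GAGGUAG and UCAAGUA. The peaks of Mirlet7b, Mirlet7d, Mirlet7g, Mir26a-2 and Mir26b were shared between the lists, and that of Mirlet7i was not. The same miR-26a-5p also comes from Mir26a-1, which had no peak in either list.
mmu-let-7b-5p: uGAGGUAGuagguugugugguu
mmu-let-7d-5p: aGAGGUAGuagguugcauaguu
mmu-let-7g-5p: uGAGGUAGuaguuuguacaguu
mmu-let-7i-5p: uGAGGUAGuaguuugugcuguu
mmu-miR-26a-5p: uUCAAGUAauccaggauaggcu
mmu-miR-26b-5p: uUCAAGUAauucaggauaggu
The miR-21 pair has the seed AGCUUAU from 2 loci, with 11 WT peaks in all, of which 4 were shared.
mmu-miR-21a-5p: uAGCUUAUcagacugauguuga
mmu-miR-21c: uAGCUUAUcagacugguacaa
In the last set, Mir29a, Mir29b-2, Mir148a, Mir16-2 and Mir34a had WT peaks and no cKO peak. The same miR-29b-3p and miR-16-5p also come from Mir29b-1 and Mir16-1, which had no peak in either list.
mmu-miR-29a-3p: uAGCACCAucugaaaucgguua
mmu-miR-29b-3p: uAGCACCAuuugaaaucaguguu
mmu-miR-148a-3p: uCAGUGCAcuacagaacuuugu
mmu-miR-16-5p: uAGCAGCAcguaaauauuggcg
mmu-miR-34a-5p: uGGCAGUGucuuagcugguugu

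Fewer of the WT peaks at microRNA genes had a cKO partner than of all WT peaks. A peak is called shared here when a peak of the other list overlapped it by at least 1 bp. Of the 517 WT microRNA peaks, 234 were shared (45.3%, Wilson 95% interval 41.0 to 49.6), against 56.1% of all WT peaks. Of the 30 WT nucleolar RNA peaks, 12 were shared (40.0%, interval 24.6 to 57.7). The intervals of the 2 classes overlap, and 30 peaks cannot separate them. In the other direction, 232 of 242 cKO microRNA peaks (95.9%, interval 92.6 to 97.7) and 12 of 13 cKO nucleolar RNA peaks (92.3%, interval 66.7 to 98.6) overlapped a WT peak, against 97.6% of all cKO peaks. With the WT list limited to its 19680 strongest peaks, as many as in the cKO list, 77.7% of the microRNA and 64.3% of the nucleolar RNA peaks left were shared. The share of all WT peaks under this limit was not computed, so these values cannot be set against the 56.1%. Above the median score of the WT list, 15.5% of microRNA, 33.3% of 12 nucleolar RNA and 12.0% of all peaks were unshared. Intervals cover counting error only. Sequencing depth is unknown, and a peak that is not listed may lie just under the caller's threshold.

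The class of the peaks differed from that of the lists as a whole. Peaks that the authors placed in the promoter class, within 3 kb of a transcription start site (TSS), made up 28.6% of WT microRNA peaks (148 of 517) and 16.7% of WT nucleolar RNA peaks (5 of 30), against 44.5% of all WT peaks. Introns held 38.3% of the microRNA peaks (198) against 26.3% of all WT peaks, and exons held 8.70% (45) against 4.96%. Distal intergenic sites held 18.8% of the microRNA peaks (97), 50.0% of the nucleolar RNA peaks (15), and 20.6% of all WT peaks. The microRNA peaks thus lay more often in introns and the nucleolar RNA peaks more often between genes. These differences depend in part on how members were chosen, since a peak over a longer gene's start usually carries that gene's name. Outside chromosome 18, 124 of 455 microRNA peaks over no start of a coding gene or lncRNA were in the promoter class. Of all WT peaks over no such start, 6531 of 24721 were. In the cKO list, 77 of 242 microRNA peaks (31.8%) and 4 of 13 nucleolar RNA peaks (30.8%) were in the promoter class, against 57.8% of all cKO peaks. The H/ACA class had 0 of 13 WT peaks in the promoter class, which allows a share of up to 23.1% for counting error, the C/D class had 4 of 13, and the Cajal body class had 1 of 4.

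**Figure D1:**
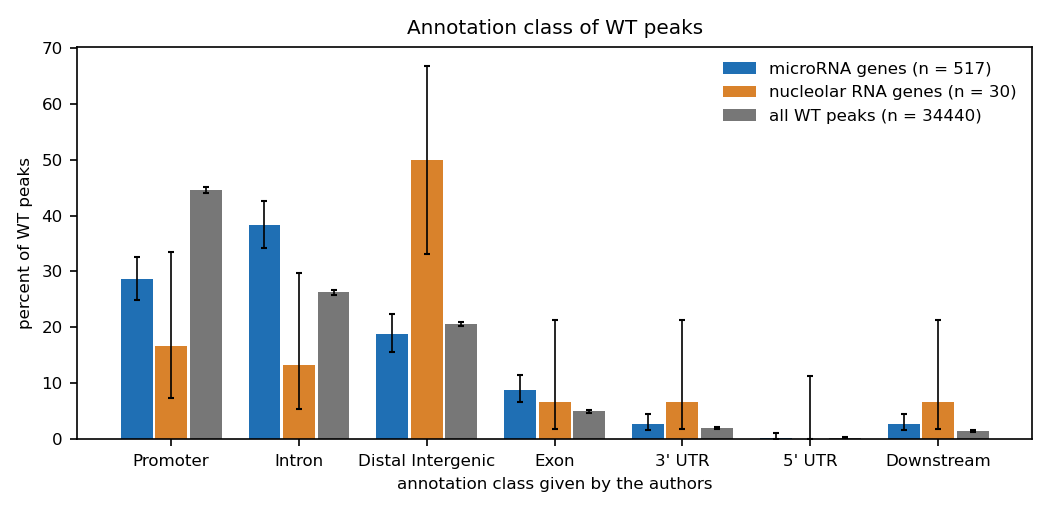
Percent of WT peaks (y axis) in each annotation class of the authors (x axis) for microRNA genes, nucleolar RNA genes and all WT peaks, with bars from 0 and Wilson 95% intervals. The promoter bar is 28.6% for microRNA genes, 16.7% for nucleolar RNA genes and 44.5% for all WT peaks, and the distal intergenic bar is highest for nucleolar RNA genes at 50.0%.

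Shares within a class were compared next. In the promoter class, 77 of 148 WT microRNA peaks were shared (52.0%, interval 44.0 to 59.9), against 74.3% of all WT promoter peaks. Within 1 kb of the TSS the shares were 60.0% of 85 microRNA peaks against 79.8% of all, and from 1 to 3 kb they were 41.3% of 63 against 42.2%. In introns, 46.0% of the microRNA peaks were shared against 39.8% of all intron peaks, and at distal intergenic sites 40.2% against 42.9%. In exons the shares were 42.2% and 42.6%, in 3′ UTRs 5 of 14 (35.7%, interval 16.3 to 61.2) against 42.3%, and downstream of genes 2 of 14 (14.3%, interval 4.01 to 39.9) against 40.5%. The share of microRNA peaks was thus lower within 1 kb of the TSS and, over 14 peaks, downstream of genes. Outside the promoter class the share was 41.4% over all WT peaks. For nucleolar RNA genes, 3 of 5 promoter peaks and 5 of 15 distal intergenic peaks were shared.

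The TSS in these annotations is the start of the small RNA itself, and few of these peaks covered the start of a longer gene. By RefSeq starts on the same build (27014 coding genes and lncRNAs), with the 41 microRNA and 2 nucleolar RNA peaks on chromosome 18 left out because starts there were not used here, 21 of 476 WT microRNA peaks (4.41%) spanned the TSS of a coding gene or lncRNA, against 26.1% of all WT peaks. Of those 21, 19 were shared, against 87.7% of all peaks that span such a TSS. A peak over the start of a longer gene usually carries that gene's name. The low share of 4.41% thus follows largely from how members were chosen. Of the 17 microRNA peaks over the TSS of a coding gene, 16 also overlapped the small RNA. Among peaks that span none, 42.6% of 455 microRNA peaks were shared (interval 38.2 to 47.2), against 45.0% of all 24721 such WT peaks, which the interval holds. Of 141 microRNA peaks in the promoter class, 124 spanned no such TSS, and 57 of them were shared (46.0%, interval 37.4 to 54.7), against 56.0% of all promoter peaks without one. None of 28 WT nucleolar RNA peaks spanned a TSS (0 of 28, which allows a share of up to 10.7% for counting error). This count, too, follows largely from how members were chosen.

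Peaks with a low score were shared less often in every class, and small RNA peaks were weighted to low scores. The same weighting was found over all WT peaks that cover no start of a longer gene. The score was used only as a rank within its own list, from near 0 for the weakest to 100 for the strongest peak. The median rank in WT was 40.0 for microRNA peaks and 38.3 for nucleolar RNA peaks, against 50.0 for all peaks by construction. In the promoter class it was 44.9 for microRNA peaks and 71.2 for all WT peaks, and outside it 38.2 and 37.3. Among WT peaks over no start of a coding gene or lncRNA it was 38.7 for microRNA peaks and 39.8 for all. Peaks on chromosome 18 were counted there as over no start. In the cKO list the medians over all classes were 34.6 for microRNA and 36.8 for nucleolar RNA peaks. In 4 equal bins of the WT list, from the lowest to the highest scores, 8.82%, 38.1%, 78.9% and 96.6% of microRNA peaks were shared, against 12.1%, 36.0%, 77.4% and 98.6% of all peaks. The nucleolar RNA peaks gave 2 of 12, 2 of 6, 3 of 7 and 5 of 5. Within a bin, the microRNA peaks were thus close to all peaks, but 11.4% of them lay in the top bin and 32.9% in the lowest.

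**Figure D2:**
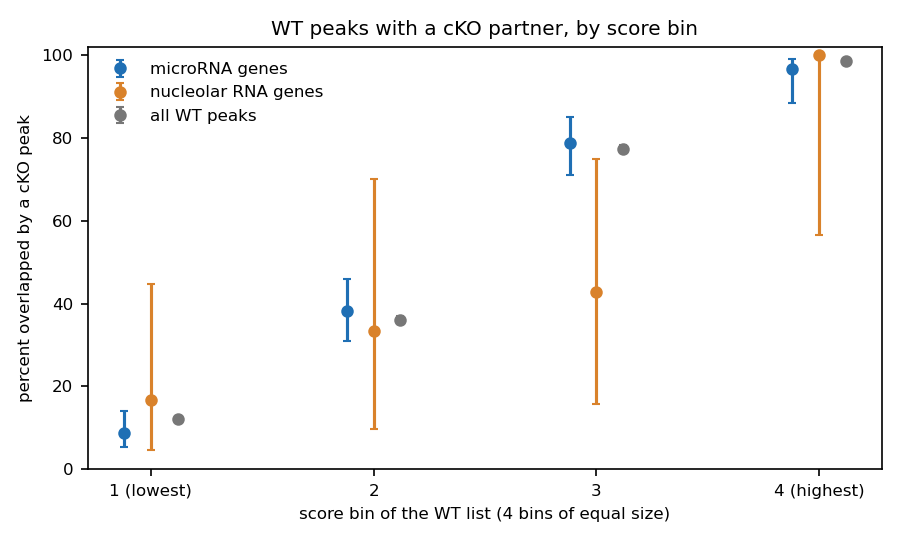
Percent of WT peaks with a cKO partner (y axis) in each of 4 equal bins of the WT list by score (x axis) for microRNA genes, nucleolar RNA genes and all WT peaks, with Wilson 95% intervals. The shares of microRNA peaks climb from 8.82% in the lowest bin to 96.6% in the highest and stay beside those of all peaks, 12.1% and 98.6%.

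Widths were a little under those of all peaks. The median width in WT was 855 bp for microRNA peaks (361 to 3256), 959 bp for nucleolar RNA peaks (363 to 2210) and 977 bp for all peaks, and in cKO it was 916.5, 859 and 974 bp. Shared microRNA peaks were wider and stronger in WT (median 1157 bp and rank 61.6) than unshared ones (643 bp and rank 22.5). Among nucleolar RNA peaks the medians were 1051 bp and rank 64.2 for shared and 749 bp and rank 22.5 for unshared peaks. Over all WT peaks they were 1213 bp and rank 71.4 for shared and 662 bp and rank 25.1 for unshared ones. The narrowest cKO peak had 465 bp. Of the 283 unshared WT microRNA peaks, 53 (18.7%) were narrower than that, and so were 4 of 18 unshared nucleolar RNA peaks. With shared peaks counted too, 10.4% of WT microRNA peaks and 8.73% of all WT peaks were that narrow. The share among all unshared WT peaks was not computed.

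A list of microRNAs with known roles in T cells was written out with 95 symbols, of which 21 had a WT peak. The 4 let-7 genes with a WT peak were added because they had one. Of the resulting 99 genes, 25 had a WT peak and 15 a cKO peak. Over all microRNA genes, 317 had a WT peak, while RefSeq holds 1180. The 25 listed genes held 39 WT peaks, of which 20 were shared (51.3%, interval 36.2 to 66.1), beside 56.1% of all WT peaks. All of their 20 cKO peaks overlapped a WT peak (0 of 20 did not, which allows up to 15%). In the promoter class 13 of 19 WT peaks were shared, and elsewhere 7 of 20, beside 74.3% and 41.4% of all WT peaks. In 14 genes every WT peak was shared, in 2 some were, and in 9 none was. Such gene counts were not made over all genes of the lists. The median WT rank was 69.8 for shared and 23.5 for unshared peaks, beside 71.4 and 25.1 over all WT peaks. The strongest unshared peak, at Mir326, ranked 50.3, and the weakest shared peak, at Mir99b, ranked 21.1.

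**Figure D3:**
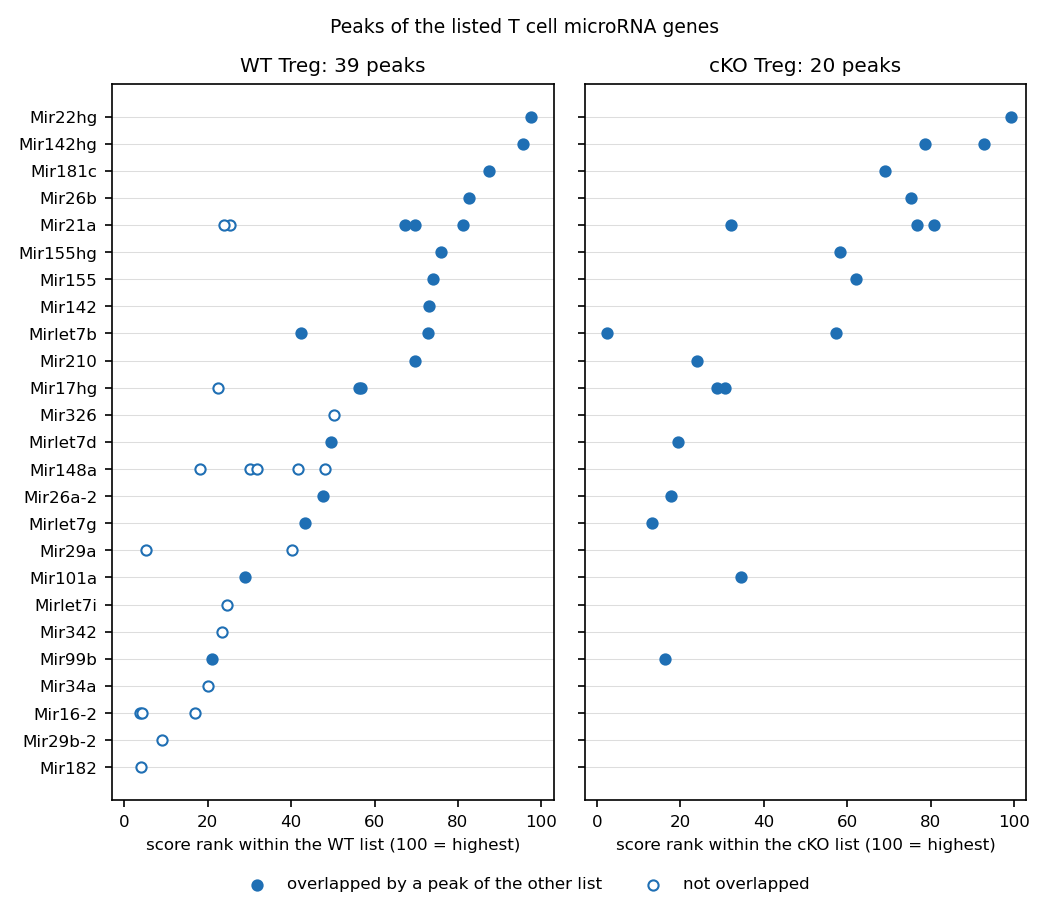
Score rank within the WT list (left) and within the cKO list (right) of every peak assigned to the listed T cell microRNA genes (y axis), with filled points for peaks overlapped by a peak of the other list and open points for the rest. The 39 WT peaks include 19 open points, none above rank 50.3, and all 20 cKO points are filled.

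Mir155, which restrains Socs1 and supports Treg fitness, had an open hairpin in both libraries. Its peak lay at chr16:84712832-84714314 (1483 bp) in WT and chr16:84713009-84714273 (1265 bp) in cKO, at ranks 74.0 and 62.0 of their lists. The start of its host transcript Mir155hg was covered by peaks at chr16:84702791-84705026 in WT and chr16:84702944-84704502 in cKO, at ranks 76.0 and 58.4. Ranks from lists of different lengths show no change and are set side by side only as positions in each list. Both ends of the locus were therefore called in both libraries.

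Mir142, a microRNA of blood cells, differed between the lists in how far its peak reached. The WT peak at chr11:87754760-87757763 (3004 bp, rank 73.0) contained the hairpin at chr11:87756864-87756927 and ran 836 bp past it. The cKO peak at chr11:87754789-87756788 (2000 bp, rank 78.7) started within 29 bp of the WT peak but ended 76 bp before the hairpin. The authors' annotation gave the WT peak to Mir142 and the cKO peak to the host transcript Mir142hg. A second peak of Mir142hg, 4850 bp upstream at chr11:87748658-87750727, was among the strongest of the members, at rank 95.5 in WT and 92.8 in cKO. The hairpin of Mir142b, on the list with no peak of its own, lay under the WT Mir142 peak only.

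Mir21a, among the most abundant microRNAs of activated T cells, had 5 WT peaks and 3 cKO peaks around its hairpin in the 3′ end of Vmp1. Those at chr11:86580638-86582634, chr11:86586213-86587625 and chr11:86592527-86593571 ranked 69.8, 81.3 and 67.2 in WT, and their cKO partners ranked 76.8, 80.8 and 32.1. The other WT peaks, 10150 and 15164 bp from the start, ranked 23.9 and 25.4 and had no cKO partner. The peaks nearest the hairpin were thus the ones found in both libraries. Mir21c, with the same seed, had 6 WT peaks spread from 9168 to 309790 bp away. Of these, the nearest was shared, at rank 36.1 in WT and 33.1 in cKO.

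Within the T cell list, the strongest WT peaks were those of the host transcripts Mir22hg and Mir142hg. The promoter of Mir22hg, which carries miR-22, had ranks 97.6 in WT and 99.3 in cKO (chr11:75460172-75462305 in WT). Mir17hg, host of the miR-17 to miR-92 cluster, had 3 WT peaks. The peak over its start, chr14:115042193-115042879, ranked 56.3 in WT and 28.8 in cKO, and that 24578 bp upstream ranked 56.8 and 30.8. The peak 1924 bp upstream ranked 22.5 in WT and had no cKO partner. Of all 10 WT host transcript peaks, the unshared ones were this peak and those of Mir133a-1hg, Mir670hg and Mir9-3hg, at ranks 1.35 to 61.7.

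Peaks of 9 listed microRNA genes were found in WT only. Mir148a, whose product targets Gadd45a and Bcl2l11 in lymphocytes, had 5 WT peaks at ranks 18.3, 30.1, 31.8, 41.7 and 48.2, of which 1 lay 628 bp from its start and 4 lay 62127 to 101088 bp away. Mir16-2, in an intron of Smc4 with Mir15b, had 3 WT peaks at ranks 3.70, 4.15 and 16.9. Mir29a had 2 at ranks 40.3 and 5.20. Mir29b-2 had 1 at rank 8.98, which also covered the hairpin of Mir29c, so the miR-29 seed AGCACCA had 3 WT peaks and 0 shared ones. Mir34a, a target of p53, had 1 at rank 20.1, Mir342 in Evl 1 at rank 23.5, Mir326 in Arrb1 1 at rank 50.3, and Mir182 1 at rank 3.87. Mirlet7i had 1 at rank 24.6, 9276 bp away, but its hairpin lay under another peak, assigned to D630033A02Rik, which was found in both libraries at ranks 49.8 in WT and 29.2 in cKO. All 9 genes kept to the lower or middle ranks, none above 50.3. Each of the WT peaks of Mir29a at rank 5.20 (414 bp), Mir342 (397 bp) and Mir34a (394 bp) was narrower than any cKO peak.

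**Figure D4:**
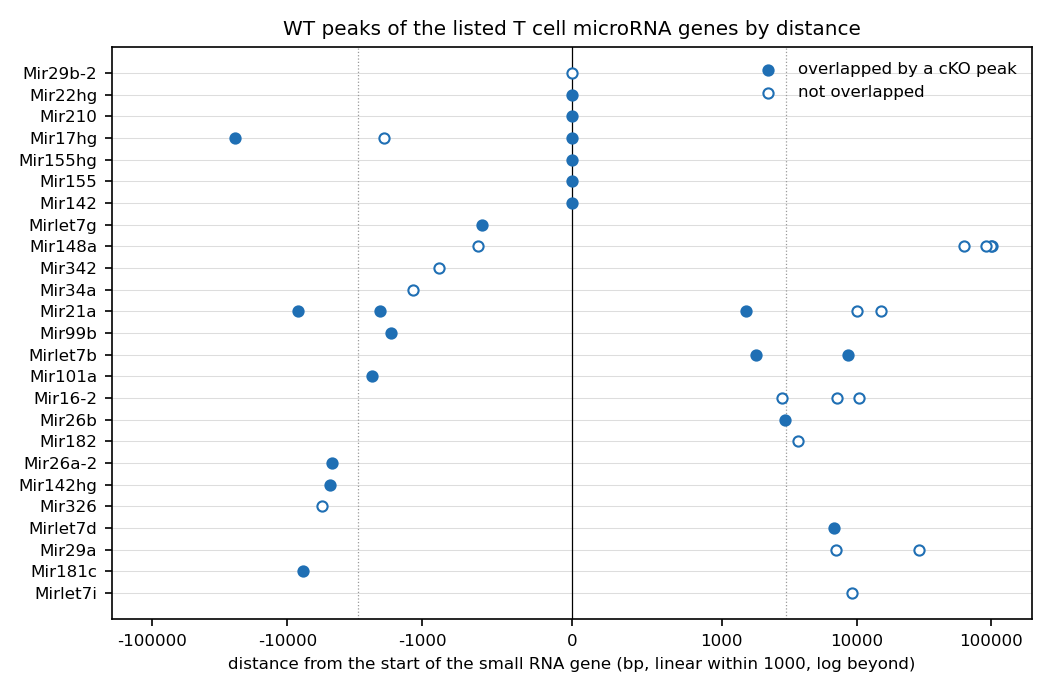
Distance of each WT peak from the start of the small RNA gene (x axis in bp, linear near 0 and logarithmic farther out, dotted lines at 3 kb) for the listed T cell microRNA genes (y axis), with filled points for peaks overlapped by a cKO peak. Of the 19 peaks between the dotted lines 13 are filled, and of the 20 outside them 7 are filled. Over all WT peaks, 74.3% were shared in the promoter class and 41.4% outside it.

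Single peaks of other listed genes were shared. Mir181c, of a family that tunes T cell receptor signalling, had a peak 7602 bp upstream at ranks 87.4 in WT and 69.0 in cKO. Mir210, a microRNA induced by hypoxia that restrains Hif1a, had a peak that reached into its hairpin in WT and ranked 69.7 in WT and 24.01 in cKO. Mir26b in Ctdsp1 ranked 82.7 and 75.4, and Mir26a-2 in Ctdsp2 ranked 47.6 and 17.7. Mirlet7b had 2 shared peaks, at ranks 72.8 and 42.4 in WT and 57.2 and 2.26 in cKO, and those of Mirlet7d and Mirlet7g ranked 49.5 and 43.4 in WT and 19.4 and 13.3 in cKO. Mir101a ranked 28.8 and 34.5, and Mir99b 21.1 and 16.3. The let-7 seed GAGGUAG thus had 5 WT peaks in these 4 genes, of which 4 were shared.

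The other 74 symbols on the list had no WT peak of their own. The hairpins of Mir132 and Mir212, however, both lay under a peak assigned to 1700016P03Rik, at rank 80.9 in WT and 70.8 in cKO. The gene of miR-146a, a regulator of Treg function, is spelled Mir146 in the deposited lists and so was missed by the written list, and its values were looked up afterwards. It had a shared peak 15312 bp from its start, at chr11:43358329-43359149 in WT, at ranks 63.8 in WT and 48.4 in cKO. A further cKO peak 25492 bp away had no WT partner and ranked 0.727.

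Nucleolar and Cajal body RNA genes gave a short list with a clear top. The strongest WT peaks belonged to Snord13 (U13), at chr8:31149172-31150704, rank 99.2 in WT and 97.3 in cKO, to Scarna2, at chr3:108553920-108554946, ranks 93.9 and 86.8, and to Snord118 (U8), at chr11:69073094-69074264, ranks 88.1 and 77.2. These were the only WT peaks of the class that covered the RNA to which they were assigned, and all 3 were shared. They are also the RNAs named above as having promoters of their own. The next were Snora65, 3103 bp away at ranks 82.1 and 68.1, and Snord12, 6293 bp away at ranks 81.8 and 56.5. In each of these 5 genes the only WT peak had a cKO partner.

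The remaining nucleolar RNA peaks lay 1172 to 51534 bp from the RNA and ranked from 0.767 to 71.3 in WT. Snora26, Snora28, Snora34, Snora75, Snora7a and Scarna17 had at least 1 shared peak each. Snora34 had 2, at WT ranks 48.1 and 57.2, 1 distal intergenic and 1 downstream of a gene. Among the unshared peaks the highest ranks were 58.4 at Snora73a, in an exon of Phactr4, 54.4 at Snord83b, 54.3 at Scarna17, 54.0 at Snord93 and 44.0 at Snord14a. Snord83b (4 peaks) and Snora31 (3 peaks) had most WT peaks, and 0 of these 7 were shared. By box class, 8 H/ACA genes had WT peaks and 6 of them also cKO peaks, while 3 of 9 C/D genes and 2 of 3 Cajal body genes did. Snora41 had the only cKO peak of the class without a WT partner, at chr1:63181192-63182862 (1671 bp, rank 51.6), 2188 bp from the RNA and within Gpr1.

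**Figure D5:**
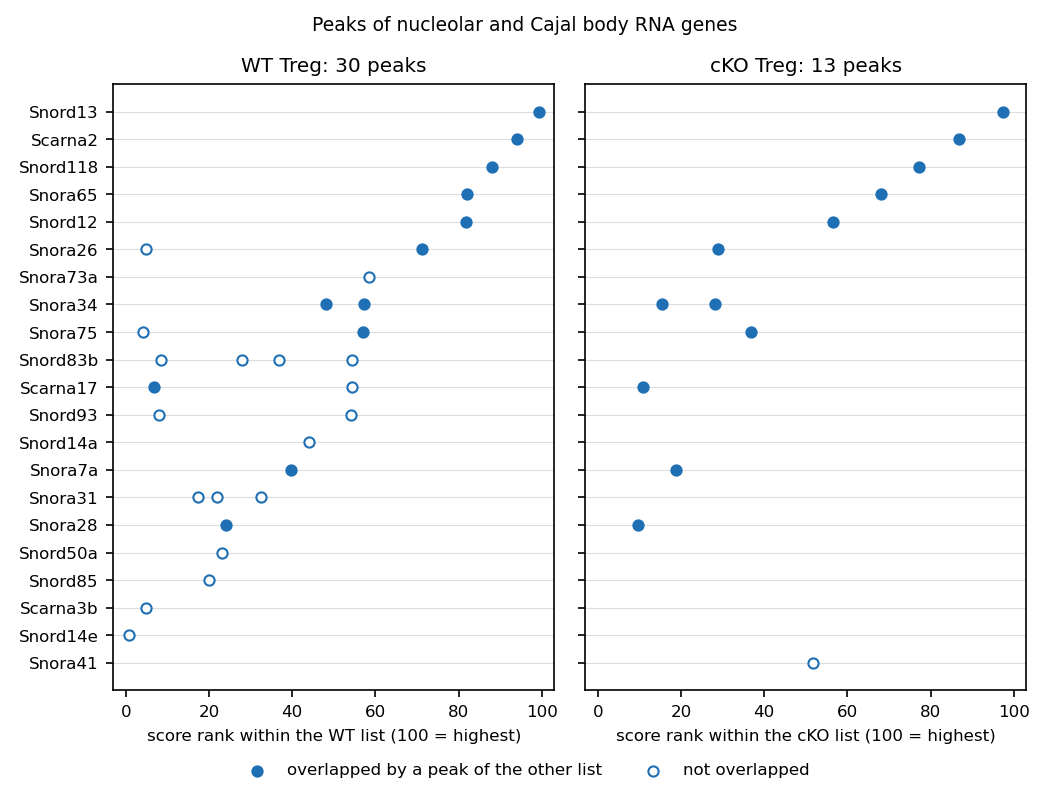
Score rank within the WT list (left) and the cKO list (right) of every peak assigned to a nucleolar or Cajal body RNA gene (y axis), with filled points for peaks overlapped by a peak of the other list. Snord13, Scarna2 and Snord118 have the 3 highest ranks in both lists, and the single open point on the right is Snora41.

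Most nucleolar RNAs that lay in open chromatin were not named in the lists, because their peak was assigned to a neighbouring gene. Of 142 RefSeq genes of this kind, 24 (16.9%) were overlapped by a WT peak and 18 by a cKO peak, 17 of them by both (70.8% of the 24, interval 50.8 to 85.1). For 21 of the 24 the WT peak carried another gene's name, and all 24 were overlapped by peaks of the promoter class. The 70.8% counts RNAs that themselves lay under a cKO peak. The 74.3% of all WT promoter peaks that were shared counts any overlap of at least 1 bp, so these shares cannot be compared. Promoter peaks of ribosomal protein genes overlapped Snora64 and Snora78 (Rps2, rank 88.4 in WT), Snord15a (Rps3, 93.3), Snord43 (Rpl3, 92.5) and Snora21 (Rpl23, 87.6). Those of noncoding hosts overlapped Snora24 (Snhg8, 90.1), Snora17 (Snhg7os, 86.2) and Snora16a, Snora44 and Snora61 (Snhg12, 78.5). Each of these hosts had a cKO promoter peak, but the cKO peaks did not reach Snora44, Snora61, Snora64 or Snord15a. The WT Rps2 peak itself ended at chr17:24720796, inside Snora64 (24720789-24720905). The WT Rps3 peak began at chr7:99482902, inside Snord15a (99482785-99482932), so both RNAs lay only partly under a WT peak.

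The difference between where an RNA lies and which peak carries its name was plain at single genes. Snora73a itself was overlapped by the Snhg3 promoter peak, at ranks 84.0 in WT and 69.2 in cKO. The peak that bears its name lay 10281 bp away and was unshared. Snora26 was overlapped by the Dancr promoter peak (91.6 and 76.5), and the WT peaks named for it lay 32644 and 39263 bp away. Scarna17 was overlapped by the Acaa2 promoter peak (92.1 and 91.1), and its named peaks lay 4854 and 14498 bp away. In these 3 cases the peak that overlapped the RNA was found in both libraries.

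MicroRNA hairpins were overlapped less often. Of 1180 RefSeq microRNA genes, 109 (9.24%) were overlapped by a WT peak and 80 by a cKO peak, 79 by both (72.5% of the 109, interval 63.4 to 80.0). For 54 of the 109 the WT peak was assigned to another gene, such as Dnaja1 over Mir207 (rank 97.6 in WT), Eif4e over Mir1956 (96.3), Cdk9 over Mir2861 and Mir3960 (94.5), Lat over Mir7058 (82.9) and Ltb over Mir6973a (77.2). Of those 54, 46 also lay under a cKO peak, and of the 55 under a peak with a microRNA's name, 33 did. Among WT microRNA peaks, 54 (10.4%) overlapped the hairpin they were named for, and 38 of these (70.4%, interval 57.2 to 80.9) were shared. For all WT peaks at distance 0 from the start of their gene the share was 86.0% (9451 of 10995). That set is unlike, since it holds the peaks over starts of longer genes, which usually carry the longer gene's name. Its median rank was 80.0, against 64.1 for the 54 microRNA peaks. Of those 54, 15 of the 16 that also spanned the TSS of a coding gene were shared. So were 23 of the 38 over no TSS of a coding gene or lncRNA, with chromosome 18 counted as having none.

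The strongest microRNA peaks had neighbours with other names. In WT the top 5 genes were Mir7671 (rank 99.1, chr11:53763012-53764350), whose peak ended 5664 bp before the start of Irf1, Mir8102 (98.7, in Pip4k2b), Mir1894 (97.9), Mir1966 (97.0) and Mir7117 (92.8, in Otulin). The Mir1894 peak, at chr17:35916136-35919391, was the widest microRNA peak (3256 bp) and covered the starts of Mrps18b and Ppp1r10. Only 10 of 517 microRNA peaks (1.93%) and 2 nucleolar RNA peaks ranked above 90 in the WT list, and all of these were shared. At Mir1903 the strongest of 3 WT peaks, chr8:128357410-128360043 (2634 bp, rank 72.0), covered the start of Nrp1, the gene of neuropilin-1, a surface protein of thymus-derived Treg cells. It was shared, with a cKO rank of 50.3, and the other 2 Mir1903 peaks, at ranks 23.5 and 25.4, were not.

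Unshared WT microRNA peaks reached rank 77.9, at Mir7219 in intron 3 of Ldlrad4. The next were Mir1955 in Phf21a (75.02), Mir7001 in Cd82 (71.8), Mir3075 in Zmiz1 (66.2) and Mir8100 in Adam19 (62.9). Above the median score of the list, 29 of 187 microRNA peaks (15.5%) and 4 of 12 nucleolar RNA peaks were unshared, against 12.0% of all WT peaks there. The 10 cKO microRNA peaks without a WT partner all ranked 8.49 or lower in the cKO list. The highest were those of Mir7674 in Nup214 (8.49), Mir3473f in Bcl2 (7.96), Mir5118 (4.65), Mir6359 in Rttn (3.10) and Mir7001 (1.98). Over the whole cKO list, 464 of 19680 peaks had no WT partner, and 443 of these lay in the lowest of 4 equal bins by score, so unshared cKO peaks were few and weak over the list as a whole.

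Many of the peaks lay inside genes that also have peaks of their own. The authors' annotation put 243 of 517 WT microRNA peaks (47.0%) in an intron or exon of another gene, 152 genes in all, and 6 of 30 nucleolar RNA peaks. Ldlrad4, a regulator of TGF-beta signalling, held 14 WT peaks under the name Mir7219, of which 6 were shared, beside 11 under its own name, of which 6 were shared. Cdk17 held 6 under Mir1931 (4 shared), B4galt1 5 under Mir5123 (4 shared), Pde4d 5 under Mir1904 and Mir582 (2 shared) and Prkca, a protein kinase C gene, 5 under Mir7223 (0 shared). The 5 Prkca peaks ranked 6.85 to 40.1 in WT. By contrast, all 4 peaks in Alpk2 under Mir122, a microRNA known from liver, were shared, at ranks 45.9 to 85.5, and so were all 3 in Arid1a under Mir7227, in Hecw2 under Mir7681 and in Macf1 under Mir6398. The contrast held for the microRNA-named peaks only. Under the genes' own names, 2 of 5 WT peaks were shared for Cdk17, 3 of 3 for B4galt1, 10 of 14 for Pde4d and 3 of 5 for Prkca. For Alpk2 2 of 7 were, for Arid1a 1 of 2 and for Macf1 1 of 3, and Hecw2 had no such peak. Mir568 had 7 WT peaks in Zbtb20 and Tigit, the gene of an inhibitory receptor of Treg cells, and the only shared one, in Zbtb20, ranked 44.6 in WT and 1.90 in cKO.

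Peaks were spread unevenly over the genes. In WT, 205 microRNA genes had 1 peak, 69 had 2 and 43 had 3 or more, and these 43 held 174 peaks with 84 shared. All WT peaks were shared at 111 genes, none at 145 and some at 61. For nucleolar RNA genes the counts were 13, 5 and 2, with all peaks shared at 8 genes, none at 9 and some at 3. These counts were not made over all genes of the lists, so they show no trait particular to small RNA genes. Of WT microRNA peaks, 228 (44.1%) lay more than 10 kb from the hairpin, against 36.8% of all WT peaks and their gene. Peaks of microRNAs numbered 3000 or above made up 337 of 517 (65.2%), a grouping chosen after the values were seen, and 47.5% of them were shared (interval 42.2 to 52.8). The shares were 38.0% of the 92 peaks of numbers from 500 to below 3000 (interval 28.8 to 48.3) and 44.3% of the 88 peaks of let-7 genes and numbers below 500 (interval 34.4 to 54.7).

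Mir3076 lies in the targeted gene. Its hairpin is near the 3′ end of Tkt (chr14:30549131-30574724), and 3 WT peaks carried its name. That at chr14:30574142-30574528 (387 bp, rank 35.7) lay inside Tkt and had no cKO partner. The others lay 4492 and 9486 bp past the end of Tkt. The first was shared, at ranks 26.2 in WT and 19.3 in cKO, and the second, at rank 20.6, was not. Within the gene, WT cells thus had 2 peaks, the Mir3076 peak and the Tkt promoter peak at rank 87.6, and cKO cells had the promoter peak alone, at rank 67.7. The labels do not say which part of Tkt is floxed, and the unshared peak was narrower than any in the cKO list, so this locus checks nothing about the genotypes.

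Genes of the proteins that make and use microRNAs had shared promoter peaks in most cases. Of 20 listed, 14 had WT peaks and 14 cKO peaks, and 26 of their 37 WT peaks were shared (70.3%, interval 54.2 to 82.5), with 16 of 17 in the promoter class. That is beside 56.1% of all WT peaks, which the interval holds, and 74.3% of all WT promoter peaks. Dicer1, which cuts the hairpins, had 1 WT peak, shared, at rank 79.8, and Dgcr8, the partner of Drosha, 1 shared peak at rank 92.3. Ago2, the slicing Argonaute, had 9 WT peaks with 7 shared and held the only unshared promoter peak of the list. Tnrc6c and Zc3h12a (Regnase-1) shared 3 of 6 each. Drosha, Xpo5, Ago4, Ddx5 and Lin28b had no peak by name in either list, and Tarbp2 had one in cKO only, at a site where the WT peak had another gene's name.

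Genes of small nucleolar ribonucleoproteins behaved alike in count. Of 21 listed, 18 had WT and 18 cKO peaks, and 19 of 29 WT peaks were shared (65.5%, interval 47.3 to 80.1), with 17 of 20 in the promoter class, beside 56.1% of all WT peaks and 74.3% of all promoter peaks. The interval holds the share of all peaks. Fibrillarin (Fbl), the methylase of C/D particles, ranked 93.7 in WT, Nop56 94.3 and dyskerin (Dkc1), the pseudouridine synthase of H/ACA particles, 82.5, all with cKO partners. Rpap3, Snu13 and Znhit3 each had an unshared promoter peak, and Pih1d1, Ruvbl2 and Wrap53 had no peak by name. Rpap3 and Naf1, with 4 and 3 WT peaks, shared 1 and 2 of them. Among 12 host transcripts of nucleolar RNAs (Gas5 and the Snhg genes), 12 of 14 WT peaks were shared (85.7%, interval 60.1 to 96.0), 11 of 12 in the promoter class, and that interval holds the 74.3% of all promoter peaks. Gas5 ranked 97.4 in WT and Snhg5 97.0, and the unshared promoter peak, of Snhg14, ranked 7.92.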

How the data were processed

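ATAC-seq peaks of 1 WT and 1 TKT cKO Treg library were used. The tools were Trimmomatic, FastQC, BWA and MACS2, on mm10, per the submitters' processing notes; their versions and settings, duplicate removal and the Tn5 offset are not stated in the labels. Peaks were called per library. The score deposited by the authors is not named by the file headers and served only as a rank within its list. Width and distance to the TSS were deposited by the authors in bp.

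Overlap was computed in Python 3.11.15 with pandas 2.3.3 and SciPy 1.17.1, and differed from bedtools 2.31.1 at 0 peaks. It was also tested on simulated data. RefSeq tables (GRCm38.p6) gave gene bodies, starts and sequences; 318 of 320 microRNA and 20 of 21 nucleolar RNA symbols matched. Read totals were not used here, so depth is unknown.

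Members and lists were chosen with earlier results of these data known. Genes named were those of the T cell list with a peak; per class, the 5 with the strongest WT peaks, unshared WT peaks and unshared cKO peaks; genes with 3 or more WT peaks; and members of the machinery lists without a WT peak, with an unshared promoter peak or with most peaks. Other genes were named after their values were seen. Alternatives changed the overlap, score, width and promoter limits, the peaks per gene and the list.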

Additional observations from a re-analysis of the deposited data

How the results depend on the processing

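Of 40 alternatives over 10 results, 23 kept the value within its interval or spread and 17 moved it. With both lists limited to peaks above their own median score, 38.0% of WT microRNA peaks and 100% of cKO ones were shared, and 36.9% of WT ones were in the promoter class. With the WT list limited to its 19680 strongest peaks, the shares were 77.7% for WT microRNA, 75.2% for cKO microRNA and 64.3% for WT nucleolar RNA peaks. With 1 peak per gene, the microRNA values were 51.1% shared in WT, 98.8% in cKO, 37.2% in the promoter class and a median rank of 48.2. With WT peaks no narrower than the narrowest cKO peak, 50.3% of microRNA peaks were shared. For these shared percentages, the same limits were not applied to all peaks, so they have no counterpart over the lists. A promoter limit of 1 kb gave 16.4% for microRNA peaks. Promoter peaks alone gave microRNA medians of 906.5 bp and rank 44.9 and a nucleolar RNA median rank of 88.1; the cKO list gave microRNA medians of 916.5 bp and rank 34.6. The score limit takes in fewer cKO peaks as partners, and the cause of the other shifts was not tested. No paired analysis was possible because WT and cKO are 1 library each, and no replicate could be left out. Depth is unknown, and its part in the unshared peaks was not tested.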
